A study of Mus musculus with 12 samples.

Results

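The 10 genes described here encode proteins that visceral endoderm is known for: the secreted carriers Afp, Ttr, Rbp4 and Trf, the apolipoproteins Apoa1, Apob and Apoe, and the endocytic receptors Amn, Cubn and Lrp2. They were named for this known role, with earlier results of these data already in view, and each was read from the brightest probe set annotated to that gene alone. They are 10 of 19938 genes with such a probe set. Of the 10, 9 had a mean level above the filter on dim genes and were tested among 15950 genes, and Apob did not.

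Visceral endoderm is the polarised epithelium that covers the early mouse embryo and also forms on the surface of embryoid bodies. It feeds the embryo in both directions: it secretes plasma proteins and lipoproteins towards the embryo and takes up maternal proteins, vitamins and iron from outside. Uptake runs through cubilin (Cubn), a very large receptor with no membrane span of its own, through amnionless (Amn), which anchors cubilin and carries it to the surface, and through megalin (Lrp2), a receptor of the LDL receptor family that works beside them. The adaptor Dab2 links these receptors to clathrin-coated pits.

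The samples were embryoid bodies grown from A2lox mouse ES cells of the 129P2/OlaHsd background, in which doxycycline (dox, 0.5 µg/ml) switches on a transgene. In the knockdown line the transgene makes miRNAs against the Geminin transcript (Gmnn). That line was collected on day 4, as 3 arrays without dox and 3 arrays that had dox from day 0. In the overexpression line dox raises Geminin and was given from day 3. It was collected on day 5 (replicates 1 and 2, with 2 arrays without and 2 with dox) or on day 4 (replicate 3, with 1 array of each), so that day cannot be told apart from replicate 3 there. ES cells were kept on irradiated mouse fibroblast feeders, which were removed before differentiation. The labels do not state how many clones each line comprises or whether replicates were separate cultures, and the spread that every p-value below is set against may therefore be technical.

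Each array gave 35512 probe-set intensities, with array means of 677.3 to 696.6 and array medians of 145.3 to 182.2. Levels below are log2(intensity + 1) after quantile normalization, on which a difference of 1 is a doubling, and levels of different genes are not compared because each probe set has its own response. The targeted gene moved as labelled: the fitted dox difference of Gmnn was -0.50 ± 0.14 (SE) on knockdown and 0.82 ± 0.14 on overexpression, with every dox array on its own side of every control (exact two-sided permutation p = 0.1 and 0.167, the smallest possible), although neither was called after adjustment over all genes (limma adjusted p = 0.965 and 0.922). In whole embryoid bodies, fewer cells of a type and less RNA per cell cannot be told apart.

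In the sequences just upstream of the start sites, Cubn was unlike Lrp2 and Amn in base content, although the 3 products act as 1 uptake complex. Afp is shown as a carrier whose window holds 2 of the motifs that were searched. RefSeq windows (GRCm38.p6) were matched for 8 of the 10 genes, all but Ttr and Trf, and each shows the 250 bases that end just before the annotated start, 5′ to 3′ on the gene's strand. Capitals mark a match to a motif searched on both strands. Cubn lies at chr2:13491877-13492126 on the minus strand, Lrp2 at chr2:69586030-69586279 on the minus strand, Amn at chr12:111270846-111271095 on the plus strand and Afp at chr5:90490464-90490713 on the plus strand.
Cubn: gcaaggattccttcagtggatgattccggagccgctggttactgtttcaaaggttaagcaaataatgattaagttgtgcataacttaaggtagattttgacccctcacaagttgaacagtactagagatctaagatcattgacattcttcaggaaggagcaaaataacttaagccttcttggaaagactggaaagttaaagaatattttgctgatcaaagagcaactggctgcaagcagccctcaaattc
Lrp2: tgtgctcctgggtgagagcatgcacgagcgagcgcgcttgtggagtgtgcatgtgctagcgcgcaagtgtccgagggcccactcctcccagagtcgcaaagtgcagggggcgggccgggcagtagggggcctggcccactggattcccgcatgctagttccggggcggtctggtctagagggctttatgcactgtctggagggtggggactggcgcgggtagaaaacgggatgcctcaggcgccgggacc
Amn: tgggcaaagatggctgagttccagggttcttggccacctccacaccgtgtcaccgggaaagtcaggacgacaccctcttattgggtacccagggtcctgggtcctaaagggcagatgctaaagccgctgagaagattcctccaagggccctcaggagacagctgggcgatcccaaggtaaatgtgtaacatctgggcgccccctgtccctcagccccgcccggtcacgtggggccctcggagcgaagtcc
Afp: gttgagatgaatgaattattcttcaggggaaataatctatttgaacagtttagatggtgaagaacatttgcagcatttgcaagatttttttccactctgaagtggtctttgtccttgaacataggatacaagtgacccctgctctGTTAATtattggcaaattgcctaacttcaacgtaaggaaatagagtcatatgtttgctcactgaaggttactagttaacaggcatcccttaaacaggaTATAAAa

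The Cubn window was poor in G and C (39.6% GC, 2 CpG dinucleotides), whereas the Lrp2 window (66.4%, 18 CpG) and the Amn window (61.2%, 11 CpG) were rich, against medians of 52.4% and 6 CpG over 32851 windows of the same length. The motifs searched were GTTAAT, the core of sites for the liver factor HNF1, CAAAGTCCA, a site for the liver factor HNF4, AGATAA, a site for factors of the GATA family, and TATAAA, the core promoter element called the TATA box. None of them was found in the 3 receptor windows. In the Afp window (36% GC) the HNF1 core began 105 bases before the start and the TATA box 7 bases before it. Of all windows 6.43% held the HNF1 core, 0.384% the HNF4 site, 9.99% the GATA family site and 12.4% the TATA box. Outside the windows shown, TATAAA was found in a window each of Rbp4, Apob and Apoe, and the HNF1 core in another window of Apoe. No motif overlapped another in the windows shown, and a match describes the letters only.

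Of the 10 genes, the receptors Cubn and Lrp2 varied most, and they varied between replicates more than between dox and no dox. In the knockdown line Cubn read 9.01, 11.72 and 9.60 without dox and 8.21, 11.61 and 9.31 with dox (replicates 1, 2 and 3). On day 5 of the overexpression line it read 7.71 and 9.30 without dox and 7.43 and 8.77 with dox (replicates 1 and 2), and on day 4 it read 7.60 and 7.58. Both replicate 2 arrays of the knockdown line stood above all others, and the day 4 arrays of the overexpression line were near the bottom. The span of 4.29 between the lowest and highest array is a 19.6-fold range, wider than that of 99.94% of tested genes, whose median range was 0.586.

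By group, the mean of Cubn was 10.11 ± 1.43 (SD, n = 3) in knockdown controls, 9.71 ± 1.73 (SD, n = 3) in knockdown dox samples, 8.51 ± 1.12 (SD, n = 2) in day 5 controls and 8.10 ± 0.94 (SD, n = 2) in day 5 dox samples. Neighbouring groups in this order differed by less than 1 SD of the knockdown groups.

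Lrp2 shared with Cubn the high replicate 2 arrays, over a narrower range. It read 10.20, 11.39 and 10.09 without dox and 9.80, 11.41 and 10.25 with dox in the knockdown line, 9.04 and 9.88 without and 9.06 and 9.68 with dox on day 5, and 9.44 and 9.73 on day 4. The replicate 2 arrays were again the highest within the knockdown line and within day 5, and the total range was 2.36 (5.15-fold), wider than that of 99.12% of tested genes.

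Amn, whose product cubilin needs in order to reach the membrane, did not share that order. It read 9.63, 9.70 and 10.19 without dox and 9.38, 9.91 and 9.09 with dox in the knockdown line, 9.61 and 9.06 without and 9.77 and 9.31 with dox on day 5, and 9.86 and 9.49 on day 4. The highest array was knockdown control replicate 3, and on day 5 replicate 2 was the lower of the replicates with and without dox. Its range was 1.13, or 2.19-fold.

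**Figure D1:**
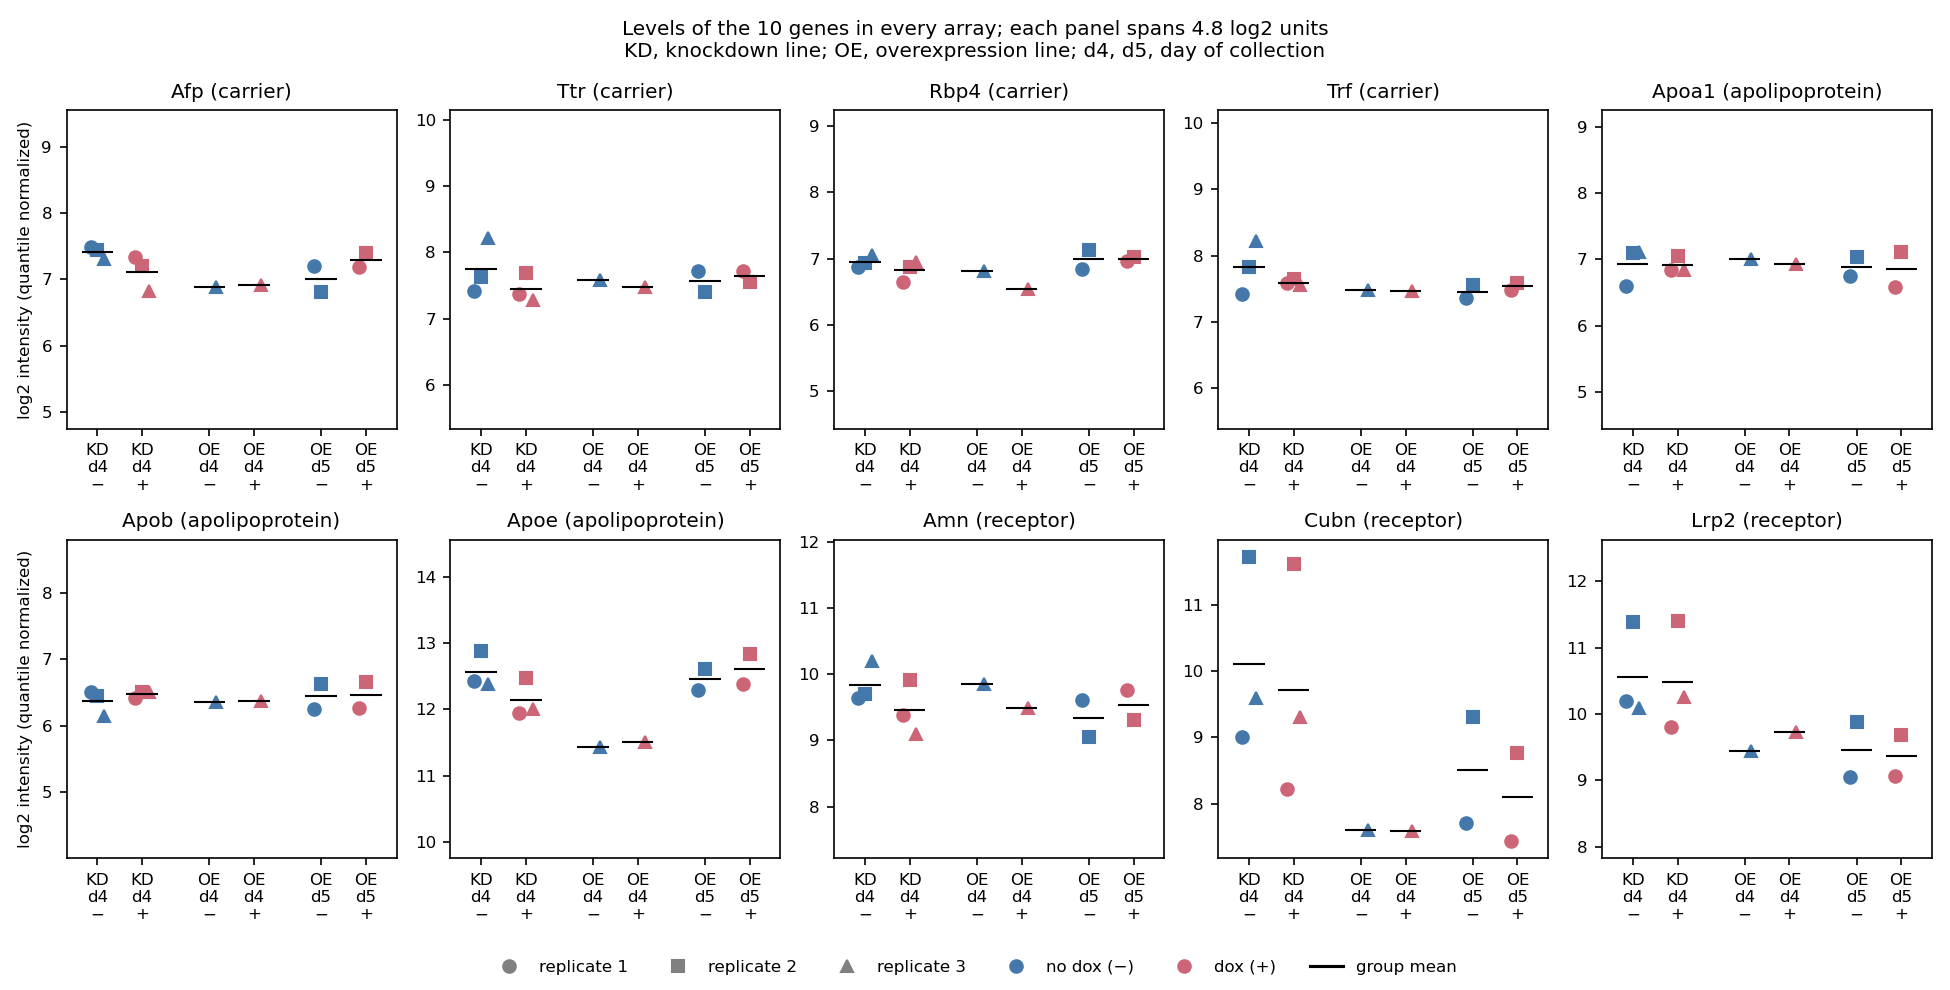
Log2 intensity after quantile normalization (vertical axis) of each of the 10 genes in the 6 groups (horizontal axis), with 1 point per array, shapes for replicate numbers, colours for dox and a line at the group mean; every panel spans the same number of log2 units. Cubn and Lrp2 spread widely, with both knockdown replicate 2 arrays on top, whereas the carriers span less than 1 log2 unit each.

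For Cubn, Lrp2, Apoe and Apoa1 the gap between replicates 1 and 2 of the knockdown line was larger than the dox difference fitted for that gene. For Trf (0.237 against -0.232) and Rbp4 (0.143 against -0.131) it was larger by little. The mean of the knockdown replicate 2 arrays exceeded that of replicate 1 by 3.06 for Cubn, 1.40 for Lrp2, 0.49 for Apoe, 0.35 for Apoa1 and 0.29 for Amn. On day 5 of the overexpression line the same comparison gave 1.46, 0.73, 0.38 and 0.41 for Cubn, Lrp2, Apoe and Apoa1, and -0.50 for Amn. Over all tested genes the median size of these differences was 0.151 in the knockdown line and 0.181 on day 5. Cubn, Lrp2 and Apoe were 3 of 9 tested genes of the set with both replicate 2 arrays above the other 4 arrays of the knockdown line, where 11.5% of all tested genes showed this. The same 3 also had replicate 2 above replicate 1 in all day 5 arrays, which held for 8.29% of tested genes. The replicate number is all that the labels give, and no culture batch or date is attached to it.

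Levels on day 4 also differed between the arrays of the 2 lines. The overexpression line has only replicate 3 on that day, so line cannot be told apart from that replicate. The start of dox differed too (day 0 and day 3). On day 5 the replicate 2 arrays of the overexpression line (9.30 and 8.77 for Cubn) lay within the span of the knockdown line (8.21 to 11.72). All 6 knockdown line arrays lay above both day 4 overexpression line arrays for Cubn, Lrp2 and Apoe, a pattern of 8.41% of tested genes. The differences in mean were 2.32 for Cubn, 0.94 for Lrp2 and 0.88 for Apoe, against a median size of 0.114 over all tested genes. For Amn (-0.02), Ttr (0.07) and Apoa1 (-0.04) the lines were close.

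Cubn and Lrp2 varied together over the 12 arrays (Pearson r = 0.953, Spearman rho = 0.874). Within the knockdown line r was 0.979 and within the overexpression line 0.691 (6 arrays each), and without both knockdown replicate 2 arrays, the farthest from the median of Cubn, it was 0.822 over 10 arrays. Dab2, the adaptor, had the highest r with Cubn of all named genes tested (0.976, with 0.996 and 0.884 by line and 0.908 without those arrays). This gene was singled out after its values were seen. Folr1, the folate receptor, had r = 0.955 (0.933 and 0.902 by line, 0.865 without those arrays). For Amn the pooled r with Cubn was 0.16, made of 0.418 in the knockdown line and -0.911 in the overexpression line.

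These correlations describe 12 arrays that share lines, replicate numbers and treatment, and they carry no test. Over all tested genes the median r with Cubn was 0.013, and 84 genes exceeded 0.9. The primitive streak markers ran the other way: Mixl1, a homeobox gene of the streak, had r = -0.961 with Cubn (-0.961 and -0.980 by line, -0.894 without those arrays), and all 7 streak markers tested lay between -0.961 and -0.737. In the knockdown line Mixl1 read 9.50, 7.03 and 9.56 without dox and 10.95, 8.04 and 9.83 with dox, so the replicate 2 arrays that were highest for Cubn were lowest for Mixl1. Values below 0 were not confined to the streak list. All definitive endoderm markers tested lay between -0.931 (Gsc, which is on both lists) and -0.048 (Sox17). The parietal endoderm markers ran from -0.932 (Fst) to 0.765 (Lamc1). The 10 pluripotency markers were mixed, 8 with r above 0 and 2 below. Low were Tdgf1 (-0.238), Klf4 (-0.092), Nanog (0.048) and Pou5f1 (0.235). High were Zfp42 (0.684), Nr0b1 (0.742), Esrrb (0.802), Sox2 (0.822), Dppa5a (0.866) and Fbxo15 (0.870). The 12 visceral endoderm regulators tested ran from -0.767 (Foxa2) through -0.048 (Sox17), 0.104 (Gata6) and 0.412 (Gata4) to 0.754 (Sox7). Afp had r = 0.303 with Cubn. The part of the mix of cell types in the levels of Cubn and Lrp2 was not tested.

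**Figure D2:**
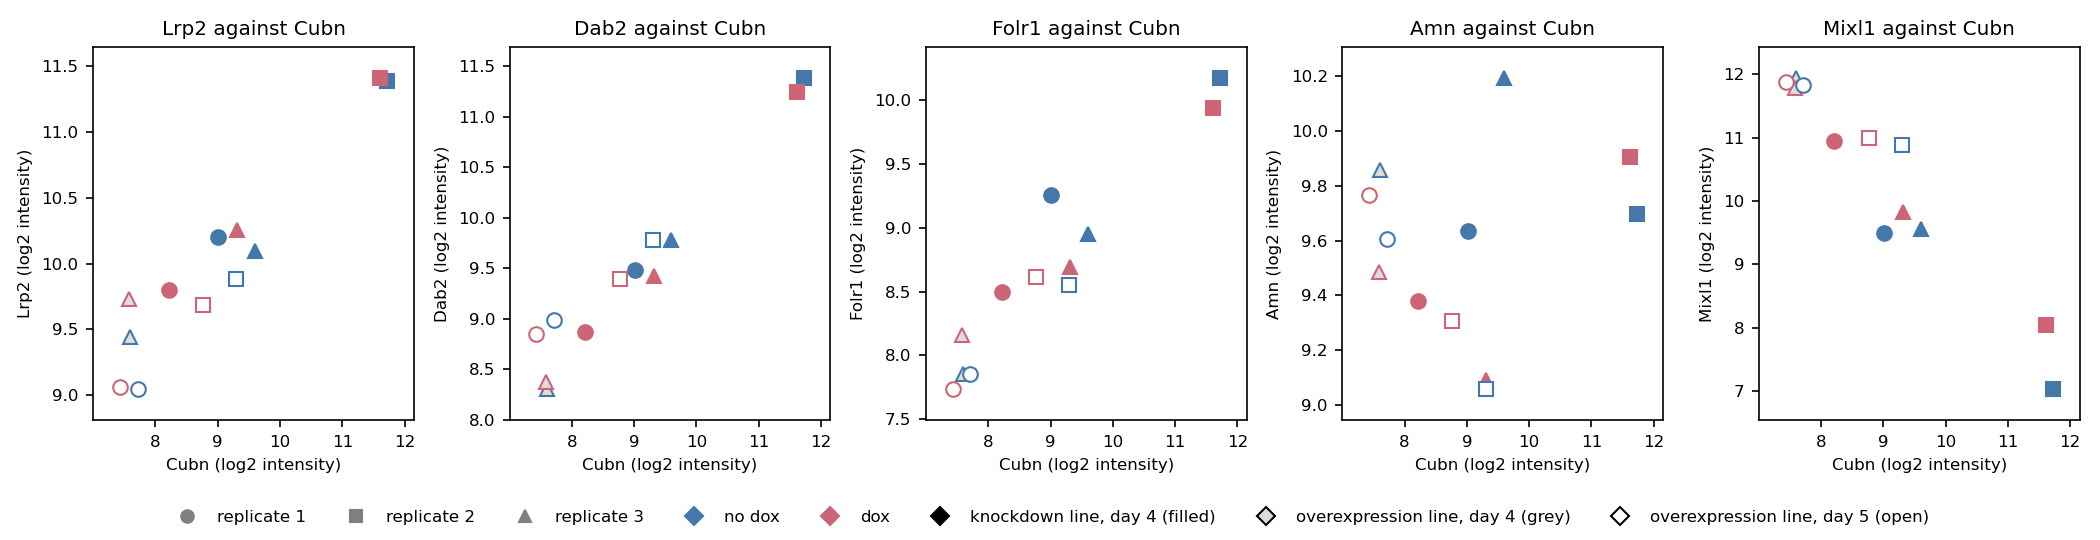
Log2 intensity of Lrp2, Dab2, Folr1, Amn and Mixl1 (vertical axes) against that of Cubn (horizontal axes), 1 point per array, with shape for replicate, colour for dox and fill for line and day. Lrp2, Dab2 and Folr1 climb with Cubn, Mixl1 descends, and Amn shows no common slope in the 2 lines.

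The secreted carriers spanned less than the receptors, but 3 of the 4 spanned more than a typical gene. Their ranges were 0.93 for Ttr, 0.86 for Trf, 0.67 for Afp and 0.58 for Rbp4, wider than those of 82.98%, 79.31%, 62.18% and 49.62% of tested genes. Afp, alpha-fetoprotein, the main plasma protein of the fetus, read 7.49, 7.45 and 7.30 without dox and 7.34, 7.20 and 6.82 with dox in the knockdown line. In the overexpression line it read 7.20 and 6.81 without and 7.19 and 7.39 with dox on day 5, and 6.89 and 6.91 on day 4. Knockdown control replicates 1 and 2 had the highest values, and the groups with and without dox overlapped in each line. The deposited intensities of Afp, 99.8 to 181.4, lay near the array medians of 145.3 to 182.2. The means of Afp, Ttr and Trf were 0.71, 1.13 and 1.14 above the filter level. Whether these genes were detected above background was not tested.

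Ttr (transthyretin) carries thyroid hormone and holds the retinol carrier Rbp4 in plasma. Ttr read 7.42, 7.63 and 8.21 without dox and 7.37, 7.69 and 7.27 with dox in the knockdown line, 7.72 and 7.40 without and 7.72 and 7.55 with dox on day 5, and 7.58 and 7.48 on day 4. One array stood out, knockdown control replicate 3. Trf (transferrin), the iron carrier, was highest in the same array: it read 7.42, 7.84 and 8.22 without and 7.58, 7.64 and 7.56 with dox in the knockdown line, and 7.36 to 7.59 in the 6 overexpression line arrays. Rbp4 had the range 6.55 to 7.13 over all 12 arrays.

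Knockdown control replicate 3 was the highest of 12 arrays for Ttr, Trf, Apoa1 and Amn and the lowest for Apob, and its deposited median of 182.2 was the highest of all arrays. Ttr and Amn had r = 0.831 and rho = 0.790 over the 12 arrays, and Ttr and Trf had r = 0.687 but rho = 0.182. Ttr and Cubn had r = 0.146. The array highest for Ttr and Trf was thus not the array highest for Cubn or Lrp2, and the part of the signal distribution of that array was not tested.

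Among the apolipoproteins, Apoe lay far above the filter level and Apoa1 and Apob near it. Apoe, a ligand of LDL receptor family members that many cell types make, read 12.42, 12.88 and 12.39 without dox and 11.95, 12.47 and 12.01 with dox in the knockdown line. In the overexpression line it read 12.30 and 12.61 without and 12.38 and 12.84 with dox on day 5, but 11.43 and 11.52 on day 4. The day 4 overexpression pair lay below every other array. Apoa1, the main protein of HDL, ranged from 6.58 to 7.12. Apob, the scaffold of VLDL and LDL and a standard visceral endoderm product, ranged from 6.14 to 6.66 with a mean of 6.42, just below the filter level of 6.46, and exceeded that level in 5 of 12 arrays. Rbp4 and Apoa1, just above the filter, had means of 6.89 and 6.91.

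The dox comparison in the knockdown line asks whether less Geminin from day 0 went with other levels of these genes on day 4. None of the 9 tested genes passed limma's adjusted threshold of 0.05, and 1 had an unadjusted p under 0.05. The main fit does not pair arrays by replicate number, and values with such pairing are given at the end. Across all tested genes 0.00627% were called, which is the single gene Hprt. All 9 fitted differences were below 0, with a median of -0.29, while the median over all tested genes was 0.01 and 47.3% of them were below 0. The sign of Lrp2 turned to 0.03 with each array set to the same median and that of Apoa1 to 0.06 with array weights. Without knockdown control replicate 2, 6 of the 9 were below 0.

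Apoe had a fitted dox difference of -0.42 ± 0.19 (SE) in the knockdown line, or 1.34-fold lower, with a limma p of 0.0462 before and 0.965 after adjustment. Its group means were 12.57 ± 0.27 (SD, n = 3) in controls and 12.15 ± 0.28 (SD, n = 3) in dox samples. The differences within equal replicate numbers were -0.47, -0.41 and -0.38, nearly the same in each, although the groups overlapped because replicate 2 was high in both (exact two-sided permutation p = 0.3). Afp gave -0.15, -0.25 and -0.48 in the same way, with a fitted difference of -0.29 ± 0.15 (limma adjusted p = 0.965; exact two-sided permutation p = 0.2).

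In Ttr and Amn the fitted difference came mostly from replicate 3. Ttr had -0.31 ± 0.19, from -0.05, 0.07 and -0.93 by replicate, and its fitted difference was -0.08 without knockdown control replicate 3. Amn had -0.38 ± 0.25, from -0.26, 0.21 and -1.10. Cubn was lower with dox in each replicate (-0.80, -0.11 and -0.29), but its spread between replicates left -0.40 ± 0.89 with a 95% interval of -2.36 to 1.56, and the value was -1.35 without knockdown dox replicate 2 and 0.41 without knockdown control replicate 2. Lrp2 had -0.07 ± 0.44. Lower in all 3 replicates were Afp, Rbp4, Apoe and Cubn, 4 of 9, where 12.2% of all tested genes showed this.

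With dox in the overexpression line, from day 3, none of the 9 genes was called and none had a limma p under 0.05, while 0.00627% of all tested genes were called, again Hprt alone. Fitted differences were above 0 for 6 and below 0 for 3, between -0.28 (Cubn) and 0.19 (Afp), with a median of 0.02 against 0.01 over all tested genes. Apoe was higher with dox in each pair (here, arrays of equal replicate number), by 0.09 and 0.23 on day 5 and 0.08 on day 4, with a fitted difference of 0.13 ± 0.19 (SE; 95% interval -0.28 to 0.54). It was the only one of the 9 higher in all 3 pairs, which 16.6% of tested genes were. Cubn was lower with dox in each pair (-0.28, -0.53 and -0.01). For Afp the fitted 0.19 ± 0.15 came from replicate 2 (0.58), as the other pairs gave -0.02 and 0.02.

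The difference of the dox differences, knockdown minus overexpression, was -0.55 ± 0.26 (SE) for Apoe and -0.49 ± 0.21 for Afp (limma adjusted p = 1.00 for each, and 0.060 and 0.0445 unadjusted). None of the 9 was called, nor was any of the tested genes (0%), and 1 of the 9 had an unadjusted p under 0.05. Apoe alone of the 9 was lower in all knockdown pairs and higher in all overexpression pairs, as were 2.46% of tested genes.

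**Figure D3:**
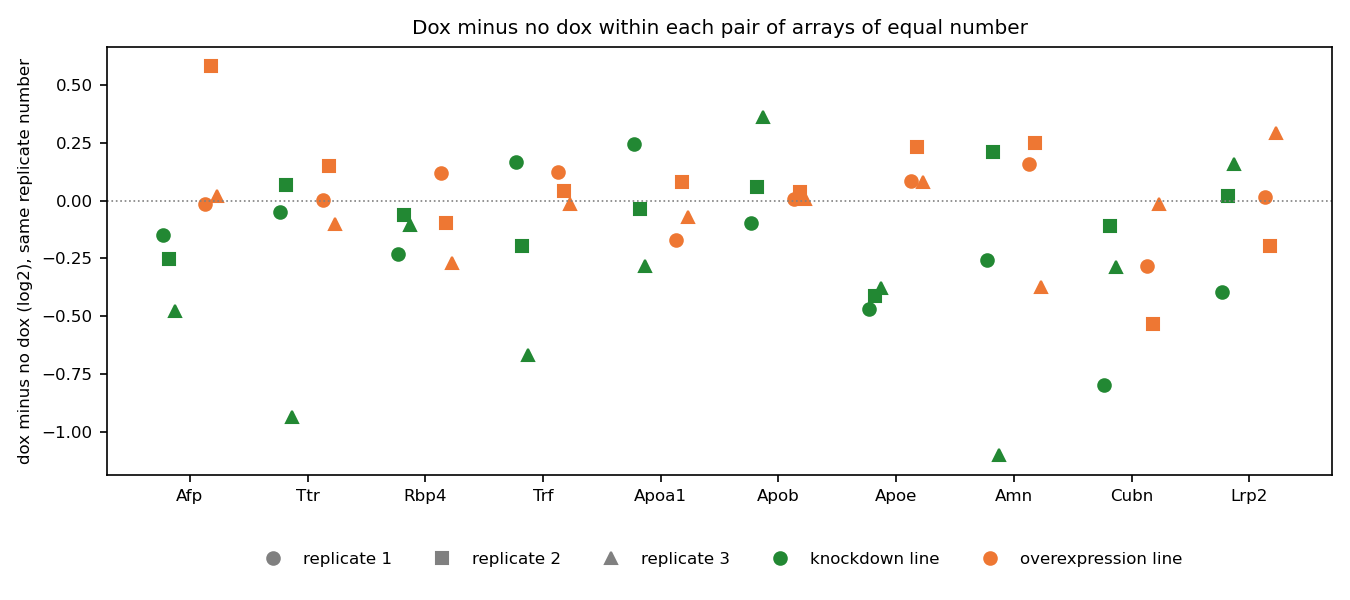
Difference in log2 intensity, dox minus no dox, between arrays of equal replicate number (vertical axis) for each gene (horizontal axis), with shape for replicate and colour for line. The 3 knockdown differences of Apoe lie together below 0 and the 3 overexpression differences above 0, whereas Ttr and Amn each have a single low knockdown point, replicate 3.

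The day comparison in the overexpression line set 4 day 5 arrays against the 2 day 4 arrays. Apoe was higher on day 5 by 1.06 ± 0.20 (SE), 2.08-fold, and was the only 1 of the 9 called (limma adjusted p = 0.0477). Of all tested genes 0.558% were called and 0.395% were called higher. All 4 day 5 arrays lay above both day 4 arrays for Apoe and also for Rbp4 (exact two-sided permutation p = 0.111 each, the smallest possible), as for 15.4% of tested genes. This permutation treats every array as a separate sample, whereas day changed only between replicate numbers. Its p is too small if arrays of equal number belong together. Rbp4, the retinol carrier, differed by 0.31 ± 0.13 (limma adjusted p = 0.289, unadjusted 0.0305), and among the alternatives run passed only with array weights (0.33, adjusted p = 0.0375).

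The Apoe call depended on single arrays: it was lost with 8 of 12 arrays left out in turn. Without knockdown control replicate 1 the limma adjusted p was 0.0718, without knockdown dox replicates 1 and 3 it was 0.0674 and 0.0817, without the day 4 control 0.641 and without the day 4 dox array 0.753. Without day 5 control replicates 1 and 2 it was 0.0951 and 0.111, and without day 5 dox replicate 2 it was 0.121. The fitted difference itself stayed between 0.95 and 1.15. The knockdown line, also collected on day 4, had Apoe at 11.95 to 12.88, and with its arrays counted as day 4 the difference was 0.48 ± 0.29 (limma adjusted p = 0.415).

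The remaining 7 tested genes did not pass the test between days. Cubn had 0.71 ± 0.94 (95% interval -1.37 to 2.79), Afp 0.25 ± 0.16, Amn -0.24 ± 0.26, Lrp2 -0.17 ± 0.47, Apoa1 -0.10 ± 0.18, Ttr 0.07 ± 0.20 and Trf 0.02 ± 0.18 (log2 ± SE). The median over the 9 was 0.07 against 0.00 over all tested genes. With the day 4 arrays of both lines the differences of Cubn (-0.48), Afp (-0.05), Ttr (-0.05) and Trf (-0.17) were below 0. Apob, fitted without the filter, had 0.09 ± 0.15 for day, 0.11 ± 0.14 for dox in the knockdown line and 0.02 ± 0.14 for dox in the other line.

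**Figure D4:**
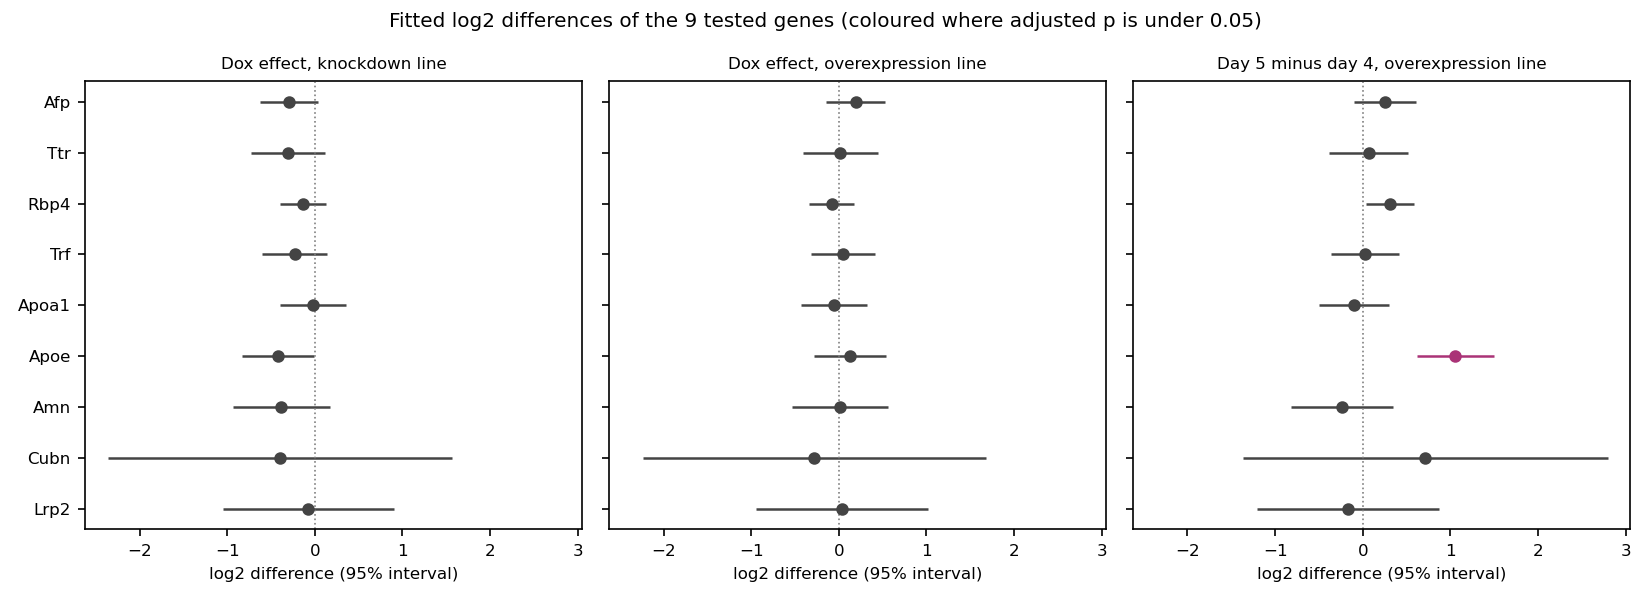
Fitted log2 differences (points) with 95% intervals (lines) of the 9 tested genes for dox in each line and for day 5 minus day 4, with a dotted line at 0 and colour where limma's adjusted p is under 0.05. Apoe on day 5 is the only coloured point, and the intervals of Cubn and Lrp2 are the widest.

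No other lipoprotein or plasma protein gene was called. Of 23 such genes 19 had a probe set of their own and 16 were tested, and limma called none for dox in either line or for day (0, 0 and 1 at an unadjusted p under 0.05). On day 5 the largest differences were those of Tcn2, the vitamin B12 carrier transcobalamin (0.82 ± 0.20, limma adjusted p = 0.0963), and Mttp, which loads lipid onto apolipoprotein B (0.46 ± 0.29). In the knockdown line Apoa4 had -0.39 ± 0.22 and Apoh -0.25 ± 0.19 with dox. Alb, the albumin gene, was below the filter, at 6.05 to 6.38.

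Genes of the uptake machinery outside the set were also not called. All 15 with a probe set, of 18 listed, were tested. With dox in the knockdown line 11 were below 0 and 4 above (median -0.07, none at an unadjusted p under 0.05), with the lowest values in Folr1 (-0.42 ± 0.42), Dab2 (-0.37 ± 0.60), Lrpap1, the chaperone of megalin (-0.29 ± 0.27), and the lysosomal protease Ctsl (-0.25 ± 0.19). On day 5, 12 were above 0 (median 0.36) and 7 had an unadjusted p under 0.05, none of which passed adjustment. Over all tested genes 7949 of 15950 were above 0 and 2264 had an unadjusted p under 0.05 in that comparison. The largest were the VLDL receptor Vldlr (1.18 ± 0.41, limma adjusted p = 0.218), Dab2 (0.91 ± 0.64), Lrpap1 (0.80 ± 0.28) and the endocytic motor Myo6 (0.76 ± 0.35). With dox in the overexpression line 9 were above 0 and 6 below. Over all tested genes 47.3% were below 0 with dox in the knockdown line and 43.3% in the overexpression line.

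Of 12 visceral endoderm regulators tested, 9 were above 0 on day 5 (median 0.60), as were 7949 of all 15950 tested genes. Bmp2, a secreted signal that this epithelium makes, was called (1.05 ± 0.19, limma adjusted p = 0.0433) and stayed called only with knockdown control replicate 2, knockdown control replicate 3 or day 5 dox replicate 1 left out. Leaving out any of the other 9 arrays ended the call, with an adjusted p of 0.0575 (without knockdown dox replicate 2) to 0.711 (without the day 4 control), and so did the random replicate block (0.232), no filter, median scaling and each line alone. All knockdown line arrays had Bmp2 below the filter level (6.14 to 6.45), so it passed the filter through the overexpression line. The endoderm factors Sox17 (1.79 ± 0.34, limma adjusted p = 0.0514), Gata4 (1.35 ± 0.56) and Sox7 (1.22 ± 0.69) were not called in the main fit. Sox17 lay at the threshold. It passed with median scaling (0.0389), the deposited scale (0.0469), pseudocount 16 (0.0465) and array weights (0.0011), among others. It did not pass with the random replicate block (0.185), no filter (0.0698) or each line alone (0.0652). With 1 array left out, it passed only without knockdown control replicate 2 (limma adjusted p = 0.0220) or knockdown control replicate 3 (0.0454). With dox in the knockdown line 10 of the 12 were below 0 (median -0.13), with Sox7 at -0.56 ± 0.65, Gata4 at -0.45 ± 0.52 and Foxa2 above 0 at 0.53 ± 0.36. None of the 12 was called by limma or had an unadjusted p under 0.05.

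By the likeness rule, the genes outside all lists whose profile over the 12 arrays was most like the mean z-score of the 9 tested genes were Cgref1 (r = 0.937), Layn (0.927), Rdh1 (0.926), Sox15 (0.917), Nos3 (0.907) and Slc41a3 (0.9004). The mean z-score was highest in knockdown control replicate 3 (1.17) and in knockdown control replicate 2 (0.99), and lowest in the day 4 dox array of the overexpression line (-0.80). This is a description over 12 arrays with no test.

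Markers of other cell types were read in the same arrays. For dox in the knockdown line all 7 primitive streak markers tested were above 0 (median 0.68, 0 called and 1 at a limma p under 0.05), 8 of 10 pluripotency markers were below 0 (median -0.34, 0 called and 1 under 0.05) and 10 of 12 parietal endoderm markers were below 0 (median -0.31, 0 called and 0 under 0.05). Over all tested genes 47.3% were below 0 in that comparison, 599 of 15950 had an unadjusted p under 0.05 and 1 was called. The mean log2 level of the streak list ran from 7.24 to 8.52 in knockdown controls, from 7.83 to 9.30 in knockdown dox samples and from 9.26 to 10.06 in the overexpression line. That of the pluripotency list ran from 11.07 to 11.40, from 10.52 to 11.20 and from 10.15 to 11.11. On day 5, 10 of 12 parietal endoderm markers were above 0 (median 0.75), with Lama1 at 1.86 ± 0.59, and 6 of 8 feeder fibroblast markers were above 0 (median 0.33), with none of either list called by limma and 5 and 3 at an unadjusted p under 0.05. Between days 7949 of 15950 tested genes were above 0 and 2264 had an unadjusted p under 0.05. The part of these markers in the differences of the 9 genes was not tested.

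By mean level, 2 of 10 fibroblast markers (Postn and Lum) and 2 of 8 macrophage markers (Adgre1 and Lyz2) were below the filter. So were 2 of 5 primitive blood markers (the embryonic globins Hbb-bh1 and Hbb-y). The rest of these lists passed it, among them Col1a1, Ptprc and the embryonic globin Hba-x. The mean level of the 8 fibroblast markers tested was 7.70 to 8.05 in knockdown controls, 7.81 to 7.93 in knockdown dox samples, 7.95 and 7.96 on day 4 and 8.15 to 8.47 on day 5 of the overexpression line. Between days, 5 of the 10 pluripotency markers were above 0 and 5 below (median -0.03). Among them Pou5f1 was called lower (-0.59 ± 0.10, limma adjusted p = 0.0383). Esrrb (1.04 ± 0.68) and Nr0b1 (0.96 ± 0.76) were above 0 and not called. Over all 15950 tested genes 63 were called higher and 26 lower between days. Of 9 definitive endoderm markers 6 were above 0, and Shh was called higher (0.80 ± 0.14, limma adjusted p = 0.0402). Both calls held with knockdown control replicate 2, knockdown control replicate 3 or day 5 dox replicate 1 left out, and that of Pou5f1 also without knockdown dox replicate 2. Leaving out any other array ended them, with adjusted p up to 0.644 for Pou5f1 and 0.702 for Shh, both without the day 4 dox array, and the random replicate block ended them too (0.185 and 0.282), as did no filter and each line alone. Median scaling ended the call of Pou5f1 (limma adjusted p = 0.116) and not that of Shh (0.0492). Above 0 with dox in the knockdown line were 7 of 9 definitive endoderm, 3 of 5 neural, 1 of 6 macrophage and 1 of 3 primitive blood markers tested. Limma called none of these, while 2 macrophage markers and none of the rest had an unadjusted p under 0.05. In that comparison 8398 of 15950 tested genes were above 0 and 599 had such a p.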

How the data were processed

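Gene expression in mouse embryoid bodies was measured on 12 Affymetrix Mouse Gene 1.0 ST arrays from 1 µg of total RNA each, per the labels' protocols. What the authors deposited is a linear intensity for every probe set on every array; how they corrected, summarised and scaled it is not given in the sources used here. Precision is limited by the number of arrays, each a sample of its own.

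The intensities were taken as log2(intensity + 1) and quantile normalized over 35512 probe sets. The annotation named 1 gene for 21789 of them, several for 1621 and none for 12102; the brightest stood for each of 19938 genes. Genes with a mean under the 20th percentile (log2 6.46) were not tested. One model for all 12 arrays, with a mean per line and day and a dox term per line, was fitted in limma 3.58.1 (R 4.3.3), with Benjamini-Hochberg adjustment over 15950 genes, and genes with an adjusted p under 0.05 are those called. SE and 95% intervals are the model's, and differences of dim genes are understated on this scale. The steps were run on simulated data with noise drawn independently for each array. That run could not show what correlation between arrays of equal number does to the calls. The named genes are the 10 members, Gmnn, Hprt if called, up to 4 genes of each list with the largest difference in each comparison, and the 6 most like the members' mean. Genes outside this rule are given only for their correlation with Cubn or as markers below the filter. Members and lists were chosen with earlier results of these data known. Of 129 genes in the lists, 10 lacked an own probe set and were not analysed here. The alternatives tried were other scalings, pseudocounts and filters, the mean of probe sets, a replicate block, array weights, each line alone and each array left out.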

Additional observations from a re-analysis of the deposited data

Results flagged for a closer look

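The dox difference of Apoe had opposite signs in the 2 lines. Every knockdown pair was lower with dox and every overexpression pair higher, and the knockdown minus overexpression difference was -0.55 ± 0.26 (SE). The test of that difference did not pass after adjustment over all genes (limma adjusted p = 1.00, unadjusted 0.060).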

How the results depend on the processing

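Apoe on day 5 stayed positive under every alternative run, but its call was lost with median scaling (limma adjusted p = 0.0993), no filter (0.0689), the random replicate block (0.167), each line alone (0.0846) and the day 4 arrays of both lines. Called genes fell from 1 to 0 with each line alone in both dox comparisons and with day 5 alone in the overexpression line, which with array weights had 201 and with an array left out 0 to 1. For day they numbered 89, or 33 with median scaling, 27 with no filter, 0 with the random replicate block, 19 with the overexpression line alone, 2567 with array weights, 424 with the day 4 arrays of both lines and 0 to 148 with an array left out (148 without knockdown control replicate 2); without the filter on dim genes more genes are tested, and otherwise the cause was not tested. For the difference between lines the random replicate block gave 1. Tested members lower with dox in the overexpression line were 3, or 1 at the 40th percentile filter, which removes dim members, 5 with array weights and 3 to 5 with an array left out.

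Signs turned as follows. With array weights Apoa1 was 0.059 in the knockdown line, and Ttr -0.067 and Amn -0.27 in the overexpression line. With median scaling Lrp2 was 0.034 in the knockdown line. With day 5 alone Rbp4 was 0.012 and Lrp2 -0.091 in the overexpression line. Between days, the day 4 arrays of both lines gave Afp -0.054, Ttr -0.047, Trf -0.17 and Cubn -0.48, and the arrays without dox gave Ttr -0.020, Trf -0.025 and Lrp2 0.020. With 1 array left out, these ranges crossed 0: in the knockdown line Cubn (-1.35 to 0.41), Dab2 (-1.07 to 0.22), Lrp2 (-0.53 to 0.34), Lrpap1 (-0.55 to 0.018) and Apoa1 (-0.19 to 0.066). With dox in the overexpression line they were Cubn (-0.69 to 0.21), Lrp2 (-0.17 to 0.31), Amn (-0.20 to 0.20), Apoa1 (-0.21 to 0.096), Ttr (-0.091 to 0.091), Rbp4 (-0.19 to 0.012), Trf (-0.013 to 0.096) and Apoe (-0.0052 to 0.26), and between days Amn (-0.53 to 0.050), Lrp2 (-0.38 to 0.020), Apoa1 (-0.21 to 0.016), Ttr (-0.020 to 0.16) and Trf (-0.025 to 0.070).

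With the replicate block as a fixed term the SE of Apoe in the knockdown line was 0.06 in place of 0.19 (limma adjusted p = 0.159) and that of Cubn 0.15 in place of 0.89 (adjusted p = 0.375), and no member was called. Deviations of arrays with equal numbers correlated at 0.602, 0.438 and 0.051 in the knockdown line and at 0.785 on day 5 of the overexpression line. Replicate 3 of the knockdown line did not exceed 0.1, and the main fit did not pair the samples by number. The labels do not say whether they are paired, and 6 of 6 knockdown arrays matched their own number best. The random replicate block put the correlation between arrays of equal number at 0.490. The SE of the main fit and the permutation p-values leave such pairing out, so they count gaps between replicates as spread. With the fixed block the unadjusted limma p of Apoe in the knockdown line was 2.9e-04 in place of 0.0462. That of Cubn was 0.0297 in place of 0.663.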
